A study of Mus musculus with 15 samples.

Results

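Liver transcripts of mice given conjugated estrogens (CE) were compared with those of mice given bazedoxifene (BZA), the components of the CE+BZA combination, each dosed alone. The comparison holds 6 of the 15 mice of the series, 3 CE mice (numbers 3, 6 and 7 in the labels) and 3 BZA mice (numbers 1, 3 and 4), which were chosen by their treatment labels. All 15 were female C57BL/6 mice (C57BL/6J in the study's methods) that had been switched to a high-fat diet (45 percent of calories from fat) at 8 weeks of age, ovariectomized at 10 weeks and treated for 6 weeks. CE was given at 2.5 mg and BZA at 3 mg per kg per day. Mice given vehicle (Veh), 5 μg per kg per day of estradiol (E2) or CE+BZA, 3 of each, are used below for context and as mice outside the comparison. Each sequenced liver came from a group of 8 mice, and 1 RNA sample per mouse was measured by RNA-seq. No intact or lean mouse is in the table, so CE and BZA can be compared here only after loss of the ovaries and on the high-fat diet.

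CE is a mixture of estrogens that activates the estrogen receptors, and BZA is a selective estrogen receptor modulator that acts as an agonist or an antagonist according to the tissue. In rodent liver many genes are expressed at different levels in females and males, largely through the sex-specific pattern of growth hormone release and its signalling through STAT5, and estrogens act on that axis as well as on the hepatocyte. Genes of drug and steroid metabolism, the major urinary proteins and several enzymes of fatty acid metabolism are among these sex-biased genes.

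Values are given on a log2 scale on which the middle one of the 15 mice is 0 for every gene, and they can be compared between mice for a gene but not between genes. A difference of 1 is a 2-fold difference. The table held 2545 genes, every one of which differed on average more than 2-fold from Veh in at least 1 treatment, so it is not the whole transcriptome. CE was compared with BZA by limma over all genes, with a Benjamini-Hochberg false discovery rate (FDR).

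With an FDR under 0.05 required beside a fold change above 2, 0 of the 2545 genes (0.00%) differed between CE and BZA by limma. At an unadjusted p under 0.05 there were 290 genes (11.4%), and 286 of the 2545 (11.2%) also had a fold change above 2. Of these, 141 (5.54%) were higher in CE and 145 (5.70%) were lower. Each of the 3 CE mice lay beyond each of the 3 BZA mice in 349 genes (13.7%), 193 of them (7.58%) with CE above and 156 (6.13%) with CE below. For a gene without any effect, a fraction of 0.1 of the 20 splits of 6 mice would also separate fully, in either direction. The genes here all differed on average from Veh in at least 1 treatment, so this fraction need not hold in this table. No overlap alone is therefore not a mark of an effect. Both conditions held in 174 genes (6.84%), 94 (3.69%) higher in CE and 80 (3.14%) lower. A call below means a fold change above 2 and an unadjusted p under 0.05 by limma. Those 174 genes are described below, and their values are a description of the 6 mice, since no gene passed the adjusted threshold. Over the whole table a CE mouse and a BZA mouse differed by a root mean square of 1.49 on the log2 scale, compared with 1.30 between CE mice and 1.48 between BZA mice. The excess of 0.10 over the within-group mean gave p = 0.1 by an exact two-sided permutation test. That is the smallest value that the 20 splits of 6 mice can give. The excess was 0.04 without CE mouse 6, 0.05 without CE mouse 7 and 0.07 without CE mouse 3. It was 0.09 without BZA mouse 3, 0.14 without BZA mouse 1 and 0.19 without BZA mouse 4. The exact permutation test gave p = 0.5 without CE mouse 6 and p = 0.3 without CE mouse 7 or CE mouse 3. For BZA the exact permutation test gave p = 0.2 without mouse 3 and p = 0.1 without mouse 1 or mouse 4.

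**Figure D1:**
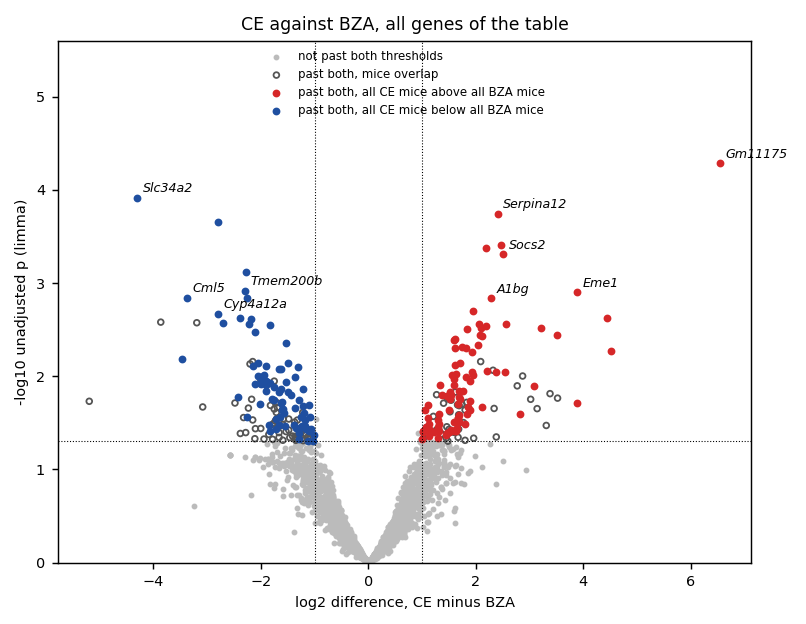
Log2 difference between CE and BZA (x axis, CE minus BZA) against the -log10 of the unadjusted limma p (y axis) for the 2545 genes; dotted lines mark a 2-fold difference and the unadjusted threshold. Filled points are the 94 genes (right) and 80 genes (left) past both lines in which no CE mouse overlapped a BZA mouse, and open circles are genes past both lines whose mice overlapped.

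The liver samples also held transcripts of other cell types, to an extent that differed between the mice. Of 28 exocrine pancreas markers in the table, 26 were highest in BZA mouse 3, where their mean was 5.5, compared with at most 0.55 in each other BZA or CE mouse. The 12 adipocyte markers averaged 2.78 in BZA mouse 3 and between -0.43 and 0.34 in the rest of the 6 mice. Neutrophil markers were highest in CE mouse 3 in 16 of 19 genes, with a mean of 4.88 there and between -0.24 and 0.90 in the others. BZA mouse 1 had the highest level of 6 of 8 bile duct markers (mean 2.02) and a mean of 1.86 over 7 mesothelial markers. Of the genes past the fold change and unadjusted p, 7 of the 19 neutrophil markers were higher in CE and 1 (G0s2) was lower, and 5 of 28 pancreatic, 5 of 12 adipocyte, 3 of 8 bile duct and 2 of 7 mesothelial markers were lower, where 5.54% of all genes were higher and 5.70% were lower. Because of this, genes are named below mainly where all mice of both groups held the order. Of such genes, 2 of the 94 and 7 of the 80 were on a marker list, compared with 119 genes (4.68%) of the whole table. Genes whose mice overlapped are also named, among them the markers Ltf, Plin1, S100a8 and Cfd. Marker genes with no overlap included Camp and Ngp, which encode neutrophil granule proteins. Camp was at 6.98 in CE mouse 3, 0.17 and 2.11 in the other CE mice and 0.00 in each BZA mouse, and without CE mouse 3 its difference went from 3.08 to 1.14. In bulk liver, more cells of a type and more RNA per cell cannot be told apart. The defining hepatocyte transcript of albumin is not analysed here, and 4 of 21 listed hepatocyte markers were in the table.

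**Figure D2:**
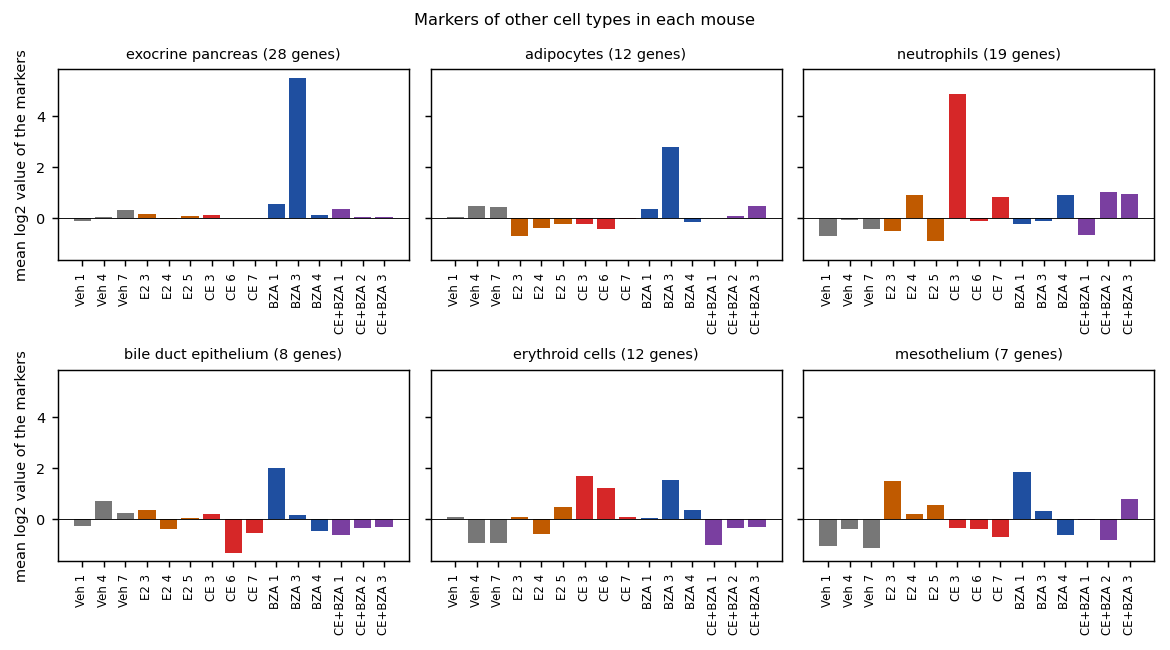
Mean log2 value of the marker genes of 6 other cell types (y axis) in each of the 15 mice (x axis); bars are single mice, coloured by group. Pancreatic markers averaged 5.5 in BZA mouse 3 and neutrophil markers 4.88 in CE mouse 3.

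Of the genes known to be expressed at a higher level in female than in male liver that passed the unadjusted threshold, all but Vldlr were higher in CE than in BZA. Of 34 such genes in the table (of 59 listed), 7 were higher in CE and 1 was lower at a fold change above 2 and an unadjusted p under 0.05, where 5.54% and 5.70% of all genes were. The median difference over the 34 was 0.20, compared with 0.00 over all genes. With no overlap between the mice, those higher in CE included A1bg, Cyp3a44 and Cyp2c69, and Vldlr was lower. Higher in CE with mice that overlapped were Ppp1r3g (difference 3.02), Cux2 (1.96) and Nipal1 (1.62). Cux2 encodes a transcription factor of female liver that represses male-biased genes.

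A1bg, which encodes a plasma glycoprotein (chr15:60917589-60921270, GRCm38.p6), was at 0.00, 0.77 and 1.51 in CE mice 3, 6 and 7 and at -2.06, -1.42 and -1.08 in BZA mice 1, 3 and 4. The lowest CE mouse was 1.08 above the highest BZA mouse. The CE minus BZA difference was 2.28 ± 0.60 (SE), a fold of 4.86, with a limma FDR of 0.277. Veh mice were at 1.48, -0.05 and 0.73, inside the range of the CE mice or close to it and above each BZA mouse. In E2 mice A1bg was at 4.03, 4.59 and 4.91, above each CE mouse, while CE+BZA mice (-2.10, -0.28 and -1.85) overlapped the BZA mice.

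Cyp3a44 and Cyp2c69 encode female-biased cytochromes P450, a family of enzymes that oxidize steroids and drugs. Cyp3a44 was at 1.42, 1.57 and 1.20 in the CE mice and at -0.16, -1.46 and 0.05 in the BZA mice. The CE mice lay within a narrow band above all Veh mice (-1.86, -1.75 and 0.00), whereas the BZA mice overlapped Veh. The difference was 1.92 ± 0.65 (SE; limma FDR = 0.373), and it was 1.45 without BZA mouse 3, where the call was lost. Cyp2c69 was at 0.00, 1.18 and 1.34 in the CE mice and at -0.62, -1.0 and -1.32 in the BZA mice. Its difference was 1.82 ± 0.56 (SE; limma FDR = 0.318), and the order CE above BZA held for all 6 mice with a gap of 0.62. Cyp3a41a, a close relative of Cyp3a44 named after its values were seen, had the same order in all mice with a difference of 1.21, and 23.3% of the 31-base stretches of its transcripts are also in Cyp3a44, so reads can be shared between them. Not all female-biased P450 genes had this order. Cyp2b10 and Cyp2b13, also named after their values were seen, were lower in each CE mouse than in each BZA mouse, by 0.98 and 0.83 on the log2 scale, and did not pass (limma FDR = 0.528 and 0.588).

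The promoters of the 5 named genes that passed as higher in CE than in BZA and in E2 than in CE+BZA, and that had a promoter entry, are shown beside that of Slc34a2, the gene lower in CE with the smallest p. The letters GGTCA or their complement TGACC are in capitals, the half-site that nuclear receptors, the estrogen receptors among them, bind. Each is the 250 bases before a RefSeq transcript start (GRCm38.p6), 5′ to 3′ on the strand of the gene. The windows of A1bg, Cyp2c69, Cyp3a44 and Serpina12 are on the minus strand, at chr15:60921271-60921520, chr19:39886770-39887019, chr5:145805875-145806124 and chr12:104044444-104044693. Those of Ccr6, which has a pair of starts, and of Slc34a2 are on the plus strand, at chr17:8235793-8236042, chr17:8242276-8242525 and chr5:53049103-53049352.
A1bg: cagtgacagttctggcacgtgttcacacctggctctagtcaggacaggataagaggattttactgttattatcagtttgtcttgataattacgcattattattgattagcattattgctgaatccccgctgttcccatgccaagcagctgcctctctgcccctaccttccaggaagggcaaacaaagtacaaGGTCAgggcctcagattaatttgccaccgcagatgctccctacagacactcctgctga
Cyp2c69: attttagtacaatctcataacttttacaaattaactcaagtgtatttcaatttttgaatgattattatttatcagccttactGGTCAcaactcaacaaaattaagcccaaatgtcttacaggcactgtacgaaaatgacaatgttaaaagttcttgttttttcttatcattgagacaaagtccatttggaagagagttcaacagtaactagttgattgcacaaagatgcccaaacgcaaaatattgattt
Cyp3a44: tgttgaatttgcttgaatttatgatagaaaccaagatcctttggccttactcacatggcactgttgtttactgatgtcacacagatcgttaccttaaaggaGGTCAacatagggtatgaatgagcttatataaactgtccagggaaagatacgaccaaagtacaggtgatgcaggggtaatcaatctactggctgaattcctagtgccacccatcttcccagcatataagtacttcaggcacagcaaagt
Serpina12: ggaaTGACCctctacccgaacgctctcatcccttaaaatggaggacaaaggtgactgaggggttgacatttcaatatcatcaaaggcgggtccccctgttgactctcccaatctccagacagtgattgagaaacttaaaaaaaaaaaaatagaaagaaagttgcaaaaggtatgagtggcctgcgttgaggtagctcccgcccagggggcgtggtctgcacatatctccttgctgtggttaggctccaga
Ccr6, first start: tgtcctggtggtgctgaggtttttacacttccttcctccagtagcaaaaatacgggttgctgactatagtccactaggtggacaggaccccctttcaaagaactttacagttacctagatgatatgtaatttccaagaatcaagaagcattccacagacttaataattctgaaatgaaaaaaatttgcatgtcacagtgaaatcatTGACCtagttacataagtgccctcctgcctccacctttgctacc
Ccr6, second start: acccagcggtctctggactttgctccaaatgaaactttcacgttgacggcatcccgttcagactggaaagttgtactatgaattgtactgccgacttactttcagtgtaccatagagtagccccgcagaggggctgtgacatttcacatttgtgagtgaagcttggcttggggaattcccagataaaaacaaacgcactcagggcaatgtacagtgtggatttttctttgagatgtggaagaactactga
Slc34a2: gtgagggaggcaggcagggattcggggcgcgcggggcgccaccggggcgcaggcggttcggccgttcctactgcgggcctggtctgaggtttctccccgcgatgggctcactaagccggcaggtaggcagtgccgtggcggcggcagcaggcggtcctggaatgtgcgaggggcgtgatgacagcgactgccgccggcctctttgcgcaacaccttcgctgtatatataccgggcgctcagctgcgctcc
The half-site begins at position -58 from the transcript start for A1bg, -168 for Cyp2c69, -149 for Cyp3a44, -246 for Serpina12 and -44 for the first start of Ccr6, with 1 in each of these windows and 0 in those of the other Ccr6 start and of Slc34a2. A half-site on either strand is common, since 35.2% of the 32851 RefSeq promoter windows of this length held at least 1. Of the genes past the fold change and unadjusted p with no overlap, it was in 25 of the 48 higher in CE and in 20 of the 51 lower in CE that had a promoter entry. These are counts of genes, and a gene such as Ccr6 has more than 1 window. Here and below such counts cannot be set directly against the share of windows, and enrichment was not tested. The full palindrome GGTCANNNTGACC, read on either strand, was in 21 windows (0.0639%), with 0 of the 48 and 0 of the 51 among them. The letters TTCNNNGAA, the palindrome that STAT factors bind, were in 7.02% of all windows, in 4 of the 48 and in 4 of the 51. A match is a description of the letters in this window and is not a binding site.

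**Figure D3:**
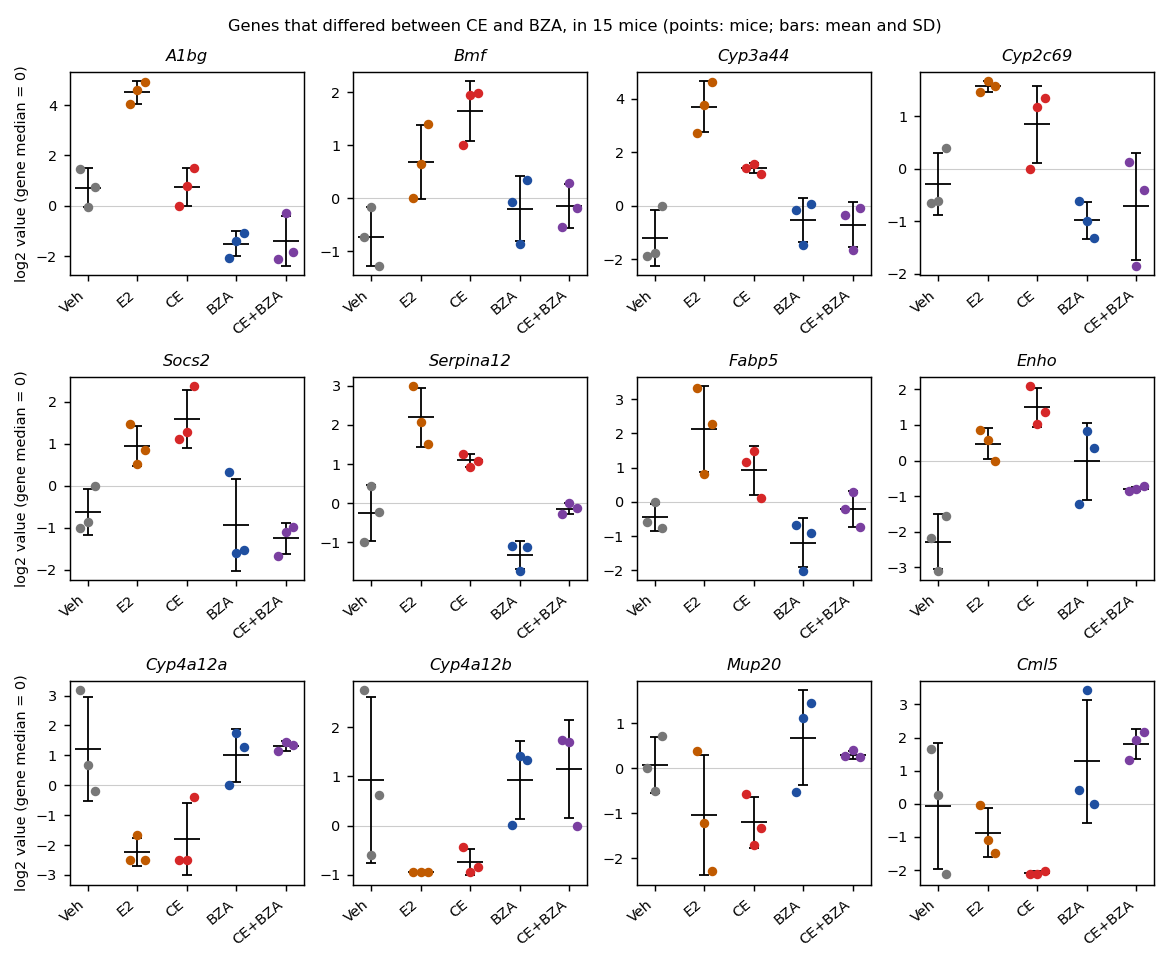
Log2 values of 12 genes (y axis, 0 is the median of the gene over 15 mice) by group (x axis); points are mice, and lines are the mean and SD of 3 mice. In the first 8 panels all CE mice (red) lie above all BZA mice (blue), by only 0.20 for Enho, and in the last 4 panels all lie below, by only 0.07 for Mup20.

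Of the genes known to be higher in male liver that passed the unadjusted threshold, all but Serpina12 were lower in CE than in BZA. Of 24 in the table (of 60 listed), 4 were lower in CE and 1 was higher at a fold change above 2 and an unadjusted p under 0.05, where 5.70% and 5.54% of all genes were, and no mouse overlapped in any of the 5. The median difference over the 24 was -0.23, and 17 of them were below 0. The 4 lower genes were Cml5, Cyp4a12a, Mup20 and Cyp4a12b.

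Cyp4a12a encodes the androgen-dependent fatty acid hydroxylase of male mouse liver and kidney. Its value was at the floor of the table (-2.50) in CE mice 3 and 6 and -0.40 in CE mouse 7, and it was 0.00, 1.73 and 1.27 in the BZA mice. E2 mice (-2.50, -1.68 and -2.50) were as low as the CE mice, and Veh mice ranged from -0.19 to 3.17. The CE minus BZA difference was -2.80 ± 0.77 (SE; limma FDR = 0.277), with CE mice 3 and 6 at a floor below which the table has no order. Without both CE mouse 3 and BZA mouse 3 it was -2.09, and the call was lost. The neighbouring Cyp4a12b was at -0.44, -0.95 and -0.84 in the CE mice and at 0.02, 1.42 and 1.34 in the BZA mice, with a difference of -1.67 (limma FDR = 0.425) whose call was lost when any of 4 mice was left out (-1.42 without BZA mouse 3, -1.46 without BZA mouse 4, -1.57 without CE mouse 6 and -1.62 without CE mouse 7). Cyp4a12a shares 62.9% of the 31-base stretches of Cyp4a12b, so the pair may not be independent measurements.

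Mup20 encodes darcin, a major urinary protein pheromone of male mice. It was at -0.58, -1.71 and -1.32 in the CE mice and at -0.52, 1.11 and 1.44 in the BZA mice, so that BZA mouse 1 was 0.07 above the highest CE mouse. The difference was -1.88 ± 0.66 (SE; limma FDR = 0.373), and it was -1.50 without BZA mouse 4, where the call was lost. Of the other Mup genes on the list, Mup1, Mup8, Mup12, Mup15 and Mup16 had differences of -0.24, -0.20, -0.24, -0.06 and -0.22 and did not pass. Mup genes are near-identical copies, and reads may be split between them. Cml5, an N-acetyltransferase-like gene now named Nat8f5, was at the floor of -2.13 in CE mice 3 and 6, at -2.02 in CE mouse 7, and at 0.42, 3.42 and 0.00 in the BZA mice. All CE mice were at least 2.02 below all BZA mice, and the difference was -3.37 ± 0.88 (SE; limma FDR = 0.277). Veh mice, from -2.13 to 1.65, overlapped both groups.

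Serpina12 encodes vaspin, a serine protease inhibitor secreted by adipose tissue and liver (chr12:104028769-104044443). It was at 1.27, 0.93 and 1.08 in the CE mice and at -1.09, -1.72 and -1.12 in the BZA mice. The mice of each group were close together, and the groups were 2.02 apart. All 3 Veh mice (-0.99, 0.44 and -0.21) lay between them, above each BZA mouse and below each CE mouse, an order found in 2 genes of the table (0.0786%), with the reverse order in 1 (0.0393%). Such an order is rare with or without an effect, so these counts do not set Serpina12 apart. They were not tested against chance. The difference was 2.41 ± 0.50 (SE), a fold of 5.30, with a limma FDR of 0.141, and leaving out any 1 mouse gave 2.20 to 2.52. E2 mice were at 3.00, 2.07 and 1.51, above all CE mice, and CE+BZA mice at -0.27, 0.00 and -0.13 were among the Veh mice.

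Socs2, a STAT5 target that limits growth hormone signalling (chr10:95383903-95417321), was at 1.11, 1.27 and 2.38 in the CE mice and at 0.34, -1.59 and -1.52 in the BZA mice. CE mice were above all Veh mice (-1.0, -0.86 and 0.00), and 1 BZA mouse was above and 2 were below them. The difference was 2.51 ± 0.58 (SE; limma FDR = 0.178), and without BZA mouse 1, the highest of the BZA mice, Socs2 passed the FDR of 0.05. The pseudogene Gm9847, named after its values were seen, had nearly the same values with a difference of 2.46, and 83.7% of its 31-base stretches are in Socs2, so it may not be a separate measurement.

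Of 11 genes on the list of estrogen receptors and genes that respond to estrogen (of 30 listed), 3 were higher and 1 was lower in CE at a fold change above 2 and an unadjusted p under 0.05. At that threshold 5.54% of all genes were higher and 5.70% were lower. The median difference over the 11 was -0.02. Besides Socs2, the genes higher in CE were Fgf21, a hepatic hormone of the fasting response, and Ltf (difference 3.31), which is also on the neutrophil list and whose mice overlapped. Fgf21 was at -0.17, 1.03 and 0.00 in the CE mice and at -0.66, -1.19 and -2.82 in the BZA mice. Its difference was 1.85 (limma FDR = 0.394), and it was 1.22 without BZA mouse 4 and 1.47 without CE mouse 6, which each ended the call. Greb1, an early estrogen target in breast and uterus, was the gene lower in CE. It was listed at the floor (0.00) in all CE, Veh and CE+BZA mice and at 0.89, 2.09 and 0.97 in the BZA mice, and its difference of -1.31 was under 2-fold (-0.93) without BZA mouse 3.

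Among 19 genes of lipid uptake, synthesis and storage (of 68 listed), 1 was higher and 4 were lower in CE at a fold change above 2 and an unadjusted p under 0.05, with a median difference of -0.52. The shares over all genes were 5.54% higher and 5.70% lower. Fabp5, a fatty acid binding protein, was at 1.15, 1.48 and 0.12 in the CE mice and at -0.67, -2.01 and -0.91 in the BZA mice. No BZA mouse reached a CE mouse, and the difference was 2.11 ± 0.63 (SE; limma FDR = 0.286). Without both CE mouse 3 and BZA mouse 3 it was 1.59, and the call was lost. G0s2, an inhibitor of the triglyceride lipase ATGL that is also on the neutrophil list, was at -0.49, -1.50 and -0.83 in the CE mice and at 0.52, 0.36 and 0.06 in the BZA mice. Vldlr, a receptor for triglyceride-rich lipoproteins, was at -1.32, -0.36 and -0.78 in the CE mice and at 0.86, 0.30 and 0.02 in the BZA mice. Both were lower in each CE mouse, with differences of -1.25 and -1.21 (limma FDR = 0.425 and 0.394), which no longer passed without BZA mouse 1 (-1.15 and -0.98). G0s2 was also lost without BZA mouse 3 (-1.23), CE mouse 6 (-0.97) or CE mouse 7 (-1.31), and Vldlr without CE mouse 3 (-0.96). Plin1, which coats the lipid droplets of adipocytes, and Mogat2 were the other lower genes, with overlapping mice and differences of -2.0 and -1.66, and Plin1 is on the adipocyte list whose mean was highest in BZA mouse 3. Pparg, the nuclear receptor of adipogenesis, was at -0.12, 0.25 and 0.03 in the CE mice and at 0.00, 0.17 and -0.57 in the BZA mice, a difference of 0.19 ± 0.44 (SE; limma FDR = 0.872) that was within the spread of the mice. Fasn, the fatty acid synthase, had a difference of -0.94, Elovl6 of -0.57, Acly of -0.22 and Cd36 of -0.15, and these 4 did not pass.

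Of 17 genes of glucose metabolism and secreted energy regulators (of 48 listed), 3 were higher and 2 were lower in CE at the same threshold, and the median difference was -0.14. Over all genes, 5.54% were higher and 5.70% were lower. Enho encodes adropin, a liver peptide linked to energy balance. It was at 2.10, 1.03 and 1.36 in the CE mice and at -1.23, 0.84 and 0.34 in the BZA mice, and both groups were above all Veh mice (-2.18, -3.09 and -1.56). The CE minus BZA difference was 1.52 (limma FDR = 0.394), and it was 0.91 without BZA mouse 1 and 1.22 without CE mouse 3, which each ended the call. G6pc, the glucose-6-phosphatase that releases glucose from hepatocytes, was at -0.63, -2.19 and -0.70 in the CE mice and at 0.61, 0.54 and -0.57 in the BZA mice. BZA mouse 4 was only 0.06 above the highest CE mouse, and the difference of -1.37 (limma FDR = 0.394) was -1.16, -1.19 and -0.86 without BZA mouse 1, BZA mouse 3 and CE mouse 6, which each ended the call. Ppp1r3g and Ppp1r3b, which target protein phosphatase 1 to glycogen, differed in opposite directions (3.02 and -1.16), with mice that overlapped. Pck1, the gluconeogenic enzyme that is also on the adipocyte list, had a difference of -0.14 and did not pass.

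Among 19 fatty acid oxidation and PPAR-alpha target genes (of 55 listed) 1 was higher and 2 were lower, and these were Fgf21, Cyp4a12a and Cyp4a12b, described above. They made up 15.8% of the list, compared with 11.2% of all genes that passed in either direction. The classical PPAR-alpha targets Cyp4a10, Cyp4a14, Pdk4, Acot1 and Ehhadh had differences of -0.25, -0.41, 0.16, -0.37 and -0.08 and did not pass. Of 8 cholesterol and bile acid genes (of 53 listed), 0 passed in either direction (limma, unadjusted p under 0.05 with a fold change above 2). Cyp7a1, the rate-limiting enzyme of bile acid synthesis, was lower in each CE mouse (-0.77, -0.84 and -0.44) than in each BZA mouse (0.06, 1.07 and -0.21), a difference of -0.99 (limma FDR = 0.482) that was -0.61 without BZA mouse 3.

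The largest difference among genes that no mouse contradicted and that were lower in CE was that of Slc34a2, a sodium-dependent phosphate transporter of epithelia (chr5:53049353-53071664). It was at -1.51, -2.41 and -4.79 in the CE mice and at 0.85, 2.68 and 0.65 in the BZA mice. The groups were 2.17 apart, the highest BZA value was in BZA mouse 3, and Veh mice (0.00, -0.55 and -2.58) overlapped the CE mice and were below the BZA mice. The difference was -4.30 ± 0.86 (SE), a fold of 19.7 in favour of BZA, with a limma FDR of 0.141, and leaving out 1 mouse, or the mice with markers of other cell types, gave -4.99 to -3.35. CE+BZA mice (0.89, 1.30 and 1.72) were as high as the BZA mice. Of the 63 solute carrier and ABC transporters in the table, 0 were higher and 4 were lower in CE, with a median of -0.19, where 5.54% of all genes were higher and 5.70% were lower. The other 3 were Slc25a29, a mitochondrial carrier of basic amino acids (difference -1.54), Slc52a3, a riboflavin transporter (-1.35), and Slc30a2, a zinc transporter (-1.17). The mice of CE and BZA did not overlap in any of the 4. The calls of Slc25a29, Slc52a3 and Slc30a2 were lost without CE mouse 6 (-1.22, -1.21 and -0.83), that of Slc30a2 without BZA mouse 3 (-1.05), and that of Slc52a3 also without BZA mouse 1 (-1.34), BZA mouse 3 (-1.23) or CE mouse 7 (-1.34).

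Eme1, Psmc3ip and Bmf were among the genes with the smallest p that were higher in each CE mouse than in each BZA mouse. Eme1, a subunit of a structure-specific DNA endonuclease, was at 0.83, 3.66 and 4.24 in the CE mice and at 0.00, -1.53 and -1.40 in the BZA mice (difference 3.88 ± 1.0 SE; limma FDR = 0.277). Veh mouse 7, at 3.25, was as high as the CE mice, and the other Veh mice were low. Psmc3ip, which assists homologous recombination, was at 2.10, 2.34 and 1.93 in the CE mice and at -0.61, 0.00 and -2.65 in the BZA mice, 1.93 apart, with a difference of 3.21. Bmf, a pro-apoptotic BCL2 family member, was at 1.0, 1.95 and 1.99 in the CE mice and at -0.07, -0.86 and 0.34 in the BZA mice. For Bmf the CE mice were also above all Veh mice (-1.27 to -0.16), whereas the BZA mice overlapped them.

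Immune genes went in both directions. Of 28 cytokines, chemokines and their receptors in the table (of 101 listed), 2 were higher and 1 was lower in CE, with a median of -0.07. That was 10.7% of them, near the 11.2% of all genes that passed in either direction. Cxcl13, the chemokine that attracts B cells, was at 2.30, 0.00 and 1.32 in the CE mice and at -1.58, -0.56 and -1.94 in the BZA mice (difference 2.57; limma FDR = 0.277). Ccr6, a chemokine receptor of lymphocytes and dendritic cells, was at 1.45, 0.63 and 2.09 in the CE mice and at 0.24, 0.27 and -1.12 in the BZA mice. Ccr6 did not overlap, and its difference of 1.59 was 1.13 without BZA mouse 4 and 1.24 without CE mouse 7, which each ended the call. Irg1 (now Acod1), which makes itaconate in activated macrophages, was at 1.82, 1.0 and 1.79 in the CE mice and at -0.18, -0.30 and -1.10 in the BZA mice, 1.18 apart. A kappa variable gene segment of the antibody light chain was at 3.25, 2.04 and 2.61 in the CE mice and at the floor of -1.58 in 2 of the BZA mice, but the constant region Igkc differed by only 0.81 with overlap (limma FDR = 0.645). In the other direction, Il1rl1, the receptor of interleukin-33, was at 0.92, 0.00 and 0.00 in the CE mice and at 1.47, 1.77 and 1.55 in the BZA mice, with 9 of the 15 mice at the floor. Its difference was -1.29, and -1.14 without CE mouse 6 or CE mouse 7, where the call was lost. The macrophage genes Gpnmb and Trem2 were also lower in each CE mouse, by 2.38 and 1.11 on the log2 scale. For Trem2 the call was lost without BZA mouse 4 (-0.94), CE mouse 6 (-0.93) or CE mouse 7 (-1.0). The mean over 6 macrophage markers was 1.43, -0.46 and 0.04 in the CE mice and 0.46, 0.02 and 0.19 in the BZA mice, so these 2 genes did not follow the list as a whole, and the part of other cells in the immune genes was not tested.

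Other genes that were higher in CE in all mice were Adamts6, a secreted metalloprotease, Aldh1a3, which makes retinoic acid, Opn1sw, the short-wave cone opsin, and Egr1, an immediate early transcription factor. Adamts6 was at 2.15, 2.42 and 1.54 in the CE mice and at 0.95, -0.75 and -0.38 in the BZA mice (difference 2.10; limma FDR = 0.277). All CE mice were above all 12 other mice for Adamts6. Aldh1a3 was at 1.16, 1.08 and 1.02 in the CE mice and at -0.62, 0.00 and -0.54 in the BZA mice, a difference of 1.47. Opn1sw was at 1.12, 1.75 and 2.95 in the CE mice and at the floor of 0.00 in each BZA and each Veh mouse. Egr1 was at 2.08, 1.36 and 2.51 in the CE mice and at 0.26, 0.08 and 0.98 in the BZA mice. Its difference of 1.54 (limma FDR = 0.425) was lost without BZA mouse 1 (1.45), BZA mouse 3 (1.36), CE mouse 3 (1.49) or CE mouse 7 (1.28). F11, the coagulation factor XI made by hepatocytes, was at 0.36, 0.53 and 0.62 in the CE mice and at -0.97, -0.17 and -0.52 in the BZA mice, a difference of 1.06 that was under 2-fold without BZA mouse 1 (0.85) and lost its call without CE mouse 7 (1.0).

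Ccdc37, Tmem200b, Mgat3 and Tsku were among the genes with the smallest p that were lower in each CE mouse than in each BZA mouse. Ccdc37, a gene of motile cilia now named Cfap100, was at 0.00, -1.34 and -1.24 in the CE mice and at 1.72, 1.35 and 1.20 in the BZA mice (difference -2.28 ± 0.56 SE; limma FDR = 0.241). Tmem200b, which encodes a membrane protein, was at 0.00, -0.09 and -0.52 in the CE mice and at 1.64, 3.27 and 1.34 in the BZA mice (difference -2.29 ± 0.59 SE; limma FDR = 0.277). In both genes all BZA mice were above all Veh mice as well, and the CE mice overlapped Veh. Mgat3, which adds the bisecting N-acetylglucosamine to N-glycans, was at -0.99, 0.17 and -0.89 in the CE mice and at 2.80, 0.77 and 1.29 in the BZA mice. Tsku, a secreted leucine-rich repeat protein of liver, was at -0.88, -3.08 and -1.18 in the CE mice and at 0.79, 1.09 and -0.36 in the BZA mice. The differences of Mgat3 and Tsku were -2.19 and -2.22 (limma FDR = 0.277 for both), with the highest BZA value in BZA mouse 1 for Mgat3 and in BZA mouse 3 for Tsku.

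Hspa1a, an inducible HSP70 chaperone, was at -1.15, -2.24 and -1.17 in the CE mice and at 1.0, 1.32 and -0.57 in the BZA mice, a difference of -2.11. Its neighbour Hspa1b, named after its values were seen, was at -1.07, -1.77 and -1.89 in the CE mice and at 0.78, 1.23 and -1.02 in the BZA mice. The pair shares 67.6% of the 31-base stretches of Hspa1b, and BZA mouse 4 was close to the CE mice in both. Without CE mouse 3, BZA mouse 3 and BZA mouse 1 the Hspa1a difference was -1.14, and the call was lost. Col8a1, a collagen of the subendothelial matrix, was at -2.91, -1.74 and -0.80 in the CE mice and at 0.57, 1.11 and -0.35 in the BZA mice, a difference of -2.26. All CE mice were also below all Veh mice (0.89, 1.18 and 1.09). Without CE mouse 3, BZA mouse 3 and BZA mouse 1 the difference of Col8a1 was -0.92. Of 24 matrix genes in the table (of 90 listed) 1 was higher and 2 were lower, and the median was -0.06. That was 12.5% of them, near the 11.2% of all genes that passed in either direction.

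Scel, Dsg1b and Mab21l2 were also lower in each CE mouse. Scel, a protein of the cornified envelope, was at 0.00, 0.17 and 0.00 in the CE mice and at 1.47, 2.35 and 0.97 in the BZA mice, with 9 mice at the floor. Dsg1b, a desmosomal cadherin, was at -0.83, -1.0 and -1.01 in the CE mice and at 1.48, 2.59 and -0.76 in the BZA mice. For Dsg1b the gap between the groups was 0.07, and the difference of -2.05 was -1.30 without BZA mouse 3 and -0.24 without CE mouse 3, BZA mouse 3 and BZA mouse 1. Mab21l2, a developmental regulator, had a gap of 0.04 and a difference of -2.71, and its difference was -1.42 without those 3 mice. Among the 6 mice the highest values of Scel, Dsg1b and Mab21l2 were in BZA mouse 3, where pancreatic and adipocyte markers were also highest, although Veh mouse 1 was higher still for Mab21l2 (1.89, and 1.87 in BZA mouse 3), and the part of other cells in them was not tested.

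**Figure D4:**
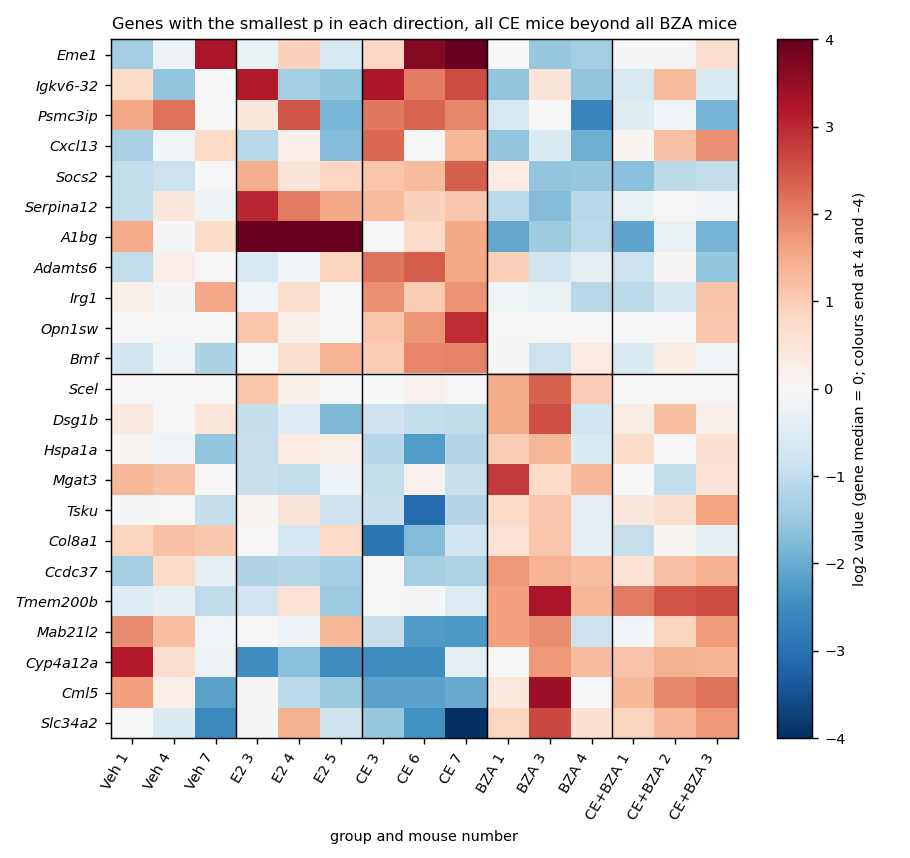
Log2 values (colour, red above and blue below the median of the gene over 15 mice, colours ending at 4 and -4) of genes with the smallest limma p in each direction among genes with no overlap, in each mouse (columns). The upper 11 genes are higher in each CE mouse than in each BZA mouse and the lower 12 are lower, with gaps from 0.04 (Mab21l2) to 2.17 (Slc34a2).

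Among the 30 cytochromes P450 in the table, 2 were higher (Cyp3a44 and Cyp2c69) and 2 were lower in CE (Cyp4a12a and Cyp4a12b), and the median was -0.17. For these and the lists that follow, the shares over all genes were 5.54% higher and 5.70% lower. Of 19 Ugt, Sult and Gst conjugating enzymes 1 was lower, Gsta1, a glutathione transferase, whose mice overlapped (difference -1.08, and -0.84 without BZA mouse 1, -1.01 without BZA mouse 3, -0.86 without CE mouse 3 and -1.0 without CE mouse 6, where the call was lost). The 5 Sult2a genes on that list, Sult2a1 to Sult2a5, had differences from -0.87 to 0.02 and did not pass. Of 10 circadian clock genes 2 were lower, Tsku and Ccrn4l (-1.48), while the core clock genes Per1, Cry1, Nr1d1 and Dbp (-0.16, -0.83, 0.75 and 0.89) did not pass. Of 10 immediate early genes 1 was higher (Egr1) and 1 was lower (Dusp1, -1.75), so the list had no common direction. Among 15 acute phase genes 1 was higher, S100a8, which is on the neutrophil list, was at 5.66 in CE mouse 3, and had a difference of 2.38 that was 0.80 without that mouse, 1.89 without BZA mouse 1 and 2.19 without BZA mouse 3, where the call was lost. Saa1, Saa2, Orm2 and Lcn2 had differences of -0.48, -0.41, -0.17 and -0.22 and did not pass. Of 4 interferon-induced genes 1 was higher (Slfn1), with overlap and a difference of 1.40 that was lost without CE mouse 3 (0.91) or BZA mouse 4 (1.14). Among 10 complement and coagulation genes F11 was higher and Cfd, the adipocyte protease complement factor D, was lower. Cfd overlapped between the groups, was at 4.59 in BZA mouse 3, and its difference of -2.38 was -0.80 without that mouse, -1.37 without CE mouse 6, -2.82 without BZA mouse 1 and -2.65 without CE mouse 3, where the call was lost. Veh mice had Cfd between 3.15 and 4.89.

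A related contrast of an estrogen with a group given BZA was read in 6 other mice, by taking E2 minus CE+BZA. It is not the same contrast, since the CE+BZA mice also received CE. In the study's methods E2 was delivered by pellets and CE by osmotic minipumps. No mouse is shared with the CE and BZA groups, but the spread behind each p was estimated from all 15 mice. The 94 and 80 genes were therefore not chosen independently of the E2 and CE+BZA mice. Markers of other cell types were also raised in some E2 and CE+BZA mice. In E2 mouse 3 the mean was 2.86 over 3 intestinal and 1.48 over 7 mesothelial markers. In CE+BZA mouse 3 it was 1.53 over 7 muscle markers. The part of other cells in this contrast was not tested. Over all genes the E2 mean was above the CE+BZA mean in 1060 (41.7%) and below it in 1430 (56.2%), with a median of -0.17. Of the 94 genes higher in CE than in BZA, 57 (60.6%) were also higher in E2, and 16 (17%) had each E2 mouse above each CE+BZA mouse, compared with 216 (8.49%) of all genes. Past the fold change and unadjusted p there were 15 of the 94 (16.0%) higher in E2 and 3 lower, where 139 of all genes (5.46%) were higher in E2 and 196 (7.70%) were lower. Of the 80 genes lower in CE, 57 (71.2%) were also lower in E2, 18 (22.5%) had each E2 mouse below each CE+BZA mouse (296 or 11.6% of all genes), and 15 (18.8%) passed as lower in E2, with 1 higher. The median of E2 minus CE+BZA was 0.17 for the 94 and -0.52 for the 80.

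The 15 genes higher in both contrasts included A1bg, Cyp3a44, Cyp2c69, Serpina12, Socs2, Fabp5, Enho and Ccr6, and the 15 lower in both included Cyp4a12a, Cyp4a12b, Cml5, Mup-ps19, Tmem200b, Ccdc37, G6pc, Slc25a29 and Dsg1b. Of the 31-base stretches of the pseudogene Mup-ps19, 94.1% are in Mup20, so it may not be a separate measurement. Mup20 itself did not pass between E2 and CE+BZA (-1.34). Some genes called in both contrasts differed more between E2 and CE+BZA than between CE and BZA. The values of E2 minus CE+BZA were 5.92 for A1bg and 4.40 for Cyp3a44, against 2.28 and 1.92 for CE minus BZA. For Serpina12 they were 2.33 and 2.41, and for Socs2 2.19 and 2.51. The difference between the contrasts, tested as an interaction by limma, passed the FDR of 0.05 in 0 genes and had an unadjusted p under 0.05 in 205, A1bg among them (CE minus BZA less E2 minus CE+BZA of -3.64, limma FDR = 0.293). The genes that went the other way past the threshold were Cxcl13, Gm8619 and Kifc5b, higher in CE but lower in E2, and Gpnmb, lower in CE but higher in E2. Cxcl13 was at -1.10, 0.28 and -1.72 in the E2 mice and at 0.10, 1.16 and 1.83 in the CE+BZA mice. Slc34a2, Eme1 and Col8a1 did not pass between E2 and CE+BZA, with values of -1.12, -0.22 and 0.41.

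**Figure D5:**
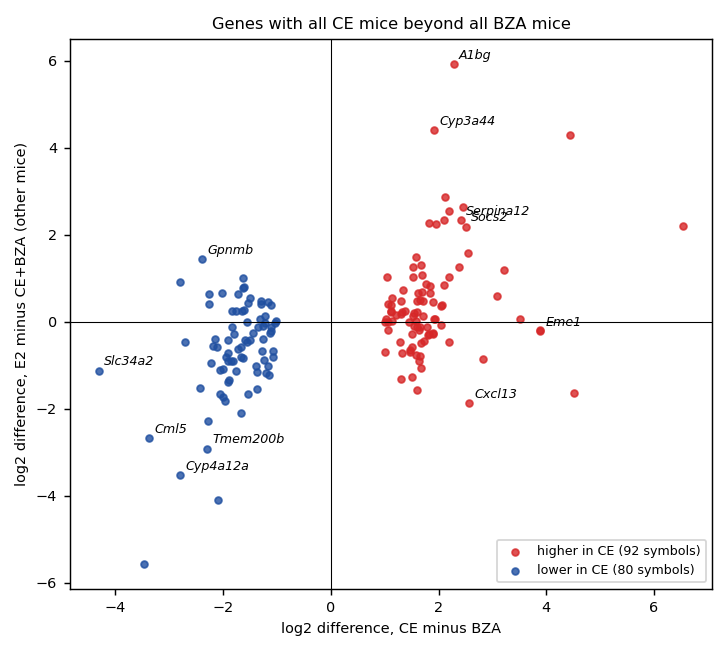
CE minus BZA (x axis) against E2 minus CE+BZA (y axis), log2 differences, for the genes with all CE mice beyond all BZA mice, a fold change above 2 and an unadjusted p under 0.05; points are genes, with a symbol that occurs more than once drawn 1 time. Of the genes on the right 57 of 94 lie above 0 on the y axis, and of those on the left 57 of 80 lie below 0.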

How the data were processed

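RNA of 15 mouse livers, 3 per group, had been sequenced by the authors after poly-A selection. The authors called bases with CASAVA 1.8.2, trimmed reads with FASTQ Trimmer, mapped them with TopHat2 (version 0.5 in the submitters' processing notes), counted partial reads too with StrandNGS, and applied its DESeq scaling. The processing notes name mm10 beside hg19. The deposited values are log2, centred so that each of the 2545 genes has a median of 0 across mice, and raised to a floor at the low end. The filter behind the 2545 genes and the depth per mouse are not given in the sources used here, and 1045 genes had 2 or more mice at their lowest value. Mice at the floor have no order among them, and a fitted difference that includes them depends on where the floor lies.

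No pseudocount, rescaling or filter was applied to these log2 values. A model of 5 groups was fitted to the 15 mice with limma 3.58.1 (lmFit, eBayes) in R 4.3.3, with Benjamini-Hochberg adjustment over the 2545 genes. Thresholds were a fold change above 2 with an FDR under 0.05 (the study's), and, as a looser count, an unadjusted p under 0.05. Two-sided exact permutation was used for the distance between mice. Tables and plots were made with Python 3.11.15, pandas 2.3.3 and matplotlib 3.10.9. The fit was tested on simulated data. Columns were matched by name, and 0 were left over; 0 pairs of mice had identical values. Gene positions and promoters came from RefSeq GRCm38.p6 by name (2181 names matched, and 50 of the 75 genes tabulated had a promoter entry) and entered no test.

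The comparison, gene lists and tests were chosen with earlier results of these data known, so list counts are not independent evidence. Named genes were, per direction, the 12 with the smallest p at a fold change above 2, an unadjusted p under 0.05, no overlap between CE and BZA mice and no mouse of the higher group at the lowest value, leaving out clone names and cell type markers; up to 4 such genes of each list, or else the one with the smallest p; and A1bg, Cfd and Pparg, which the study measured by qPCR. Slco1a1 is not analysed here, and a few results are left unreported. Other genes, given by their difference only or said to be so, were named after their values were seen. The same holds for Gm11175, mmu-mir-3061, Gm13704, Tsc22d3 and Mup-ps19. Alternatives were other scalings, filters, variance models, a replicate block, only the 6 mice, and leaving out mice.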

Additional observations from a re-analysis of the deposited data

Results flagged for a closer look

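In 3 genes every CE mouse lay on one side of all Veh mice and every BZA mouse on the other side. This is an order of values, and the differences from Veh did not all pass the unadjusted threshold. This order was not tested against chance, and it held with CE above in 2 genes (0.0786% of 2545) and with CE below in 1 (0.0393%). Serpina12, described above, had a CE minus BZA difference of 2.41. Gm13704, a predicted gene, was at 0.73, 0.66 and 0.42 in the CE mice, at 0.31, 0.05 and 0.00 in the Veh mice and at -0.47, -1.84 and -1.11 in the BZA mice, and its CE minus BZA difference was 1.74. In the E2 and CE+BZA mice Gm13704 had no such order. Tsc22d3, which encodes the glucocorticoid-induced leucine zipper GILZ, was at -0.52, -0.49 and -0.31 in the CE mice, at -0.30, -0.10 and -0.06 in the Veh mice and at 1.11, 0.82 and 0.00 in the BZA mice, and its CE minus BZA difference was -1.08. The Tsc22d3 values of CE mouse 7 and Veh mouse 1 were 0.01 apart, less than the spread within either group. The interaction of Gm13704 between CE minus BZA and E2 minus CE+BZA had a limma FDR of 0.606.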

How the results depend on the processing

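For the 63 genes followed over all alternatives, 844 values kept their direction and side of the unadjusted threshold, 185 kept the direction only, 8 passed newly and 4 reversed. The reversed values were Pparg with the replicate block (-0.26) and without BZA mouse 4 (-0.03; leaving out 1 mouse gave -0.03 to 0.34), and, without CE mouse 3, BZA mouse 3 and BZA mouse 1, S100a8 (-0.55) and Dmbt1 (0.00). At an FDR under 0.05 by limma there were 2 genes with only the 6 CE and BZA mice (Gm11175 and mmu-mir-3061), and 0 to 6 when 1 mouse was left out, with 3 without BZA mouse 1 (Socs2, Gm9847 and AC132945.1), 6 without BZA mouse 4 and 1 without CE mouse 3. Genes higher in CE at the unadjusted threshold numbered 84, and genes lower 95, without genes with 2 or more mice at the floor, where 1500 genes were tested, and 57 of those higher did not overlap. With only the 6 mice, 81 genes were lower. Leaving out 1 mouse gave 114 to 154 genes higher and 79 (without CE mouse 6) to 254 (without BZA mouse 4) lower, and with no overlap 102 to 133 higher and 62 to 182 lower, of which 182 were without BZA mouse 4 and 157 without CE mouse 3. Without the mice with markers of other cell types, chosen after seeing the data, 124 genes were lower with no overlap (without CE mouse 3 and BZA mouse 3) and 174 higher (without BZA mouse 1 as well, where fewer mice make overlap rarer). The share of the genes past the unadjusted threshold that were higher in CE was 49.3%, and it was 40.2% with array weights, 58.7% with only the 6 mice, and 31% to 65.8% when 1 mouse was left out. Without CE mouse 3 the median over all genes was -0.12. The causes of these shifts were not tested.

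Replicate numbers recur between groups but belong to different animals, and the 13 pairs of mice with the same number had correlations of -0.05 to 0.10. With the replicate block 63 genes were lower and 124 higher (66.3% higher), 27 and 47 of them with no overlap, and the median over all genes was 0.10.

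The table has no counts, so depth cannot be weighed, and 1045 genes (41.1%) had values at the floor. With 3 mice per group and no gene past the adjusted threshold, a difference of a single gene is a description.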

Other observations

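Several differences were close to all or none. Gm11175, a predicted gene, was at the floor of -6.61 in each BZA mouse and in 1 CE+BZA mouse and between -1.31 and 0.38 in all 11 other mice. It had the smallest p of the comparison (limma FDR = 0.131). The microRNA gene mmu-mir-3061 was at 4.27, 4.56 and 4.70 in the CE mice and at the floor of 0.00 in each BZA mouse, but in each other group it was also either 0.00 or above 4, in 1 of 3 Veh mice, 1 of 3 E2 mice and 2 of 3 CE+BZA mice, and poly-A selected libraries are not made to measure small RNAs. Of the 94 genes higher in CE with no overlap, 39 had a BZA mouse at a floor shared by 2 or more mice, and of the 80 lower 27 had a CE mouse there. A floor shared by 2 or more mice of any group was found in 40 of the 94 and 29 of the 80. Over all genes it was found in 1045 of 2545 (41.1%), so such floors were not particular to the genes with no overlap.

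The genes with no overlap were not equally annotated in both directions. Of the 94 higher in CE, 37 had a predicted or clone name and 51 were protein coding in RefSeq, compared with 22 and 63 of the 80 lower in CE. Among all 2545 genes, 736 had a predicted or clone name. No such count over all genes is given for protein coding, and the shares were not tested. The call held in each of the 6 fits that left out 1 mouse for 34 of the 94 and 24 of the 80.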
